A study of Nomascus leucogenys with 9 samples.

Results

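Polycomb repressive complex genes were examined in lymphoblastoid cell lines of 9 northern white-cheeked gibbons (Nomascus leucogenys). A list of 10 human Ensembl identifiers was given, for EZH2, EZH1, EED, SUZ12, JARID2, BMI1, RNF2, RING1, CBX7 and CBX8, and each identifier was looked for among the 15356 rows of the deposited expression table. Of the 10 genes, 7 had a row, and all 7 passed a minimum mean level of 1 ppm (part per 1000000 of the summed linear values of a line). They were EZH2 (ENSG00000106462), EED (ENSG00000074266), SUZ12 (ENSG00000178691), BMI1 (ENSG00000168283), RNF2 (ENSG00000121481), CBX7 (ENSG00000100307) and CBX8 (ENSG00000141570). No row carried the identifiers of EZH1 (ENSG00000108799), JARID2 (ENSG00000008083) or RING1 (ENSG00000204227), which were not analysed here.

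Lymphoblastoid lines are B lymphocytes that have been immortalised with Epstein-Barr virus and grow continuously in culture. RNA-seq was performed once on each line, every line came from a different animal, and all 9 form a single group. The labels give no treatment, genotype, age or sex for any of them, so the data describe how far Polycomb gene expression differed among animals' lines. The study as a whole concerns LAVA, a retrotransposon of the gibbon genome. The lines carry the names of the animals, which in alphabetical order begin with Asia, Bobby, China and Khao. The remaining lines are Melouprey, Nancy, Phyllis, Ricky and Vok.

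Polycomb group proteins keep developmental and cell cycle genes silent by modifying histones. Polycomb repressive complex 2 (PRC2) methylates lysine residues of histone H3, and Polycomb repressive complex 1 (PRC1) attaches ubiquitin to histone H2A, with chromodomain subunits that can bind the mark left by PRC2. In B cells EZH2 is best known from the germinal centre, where dividing cells hold high amounts of it, while EZH1 is the paralog associated with resting cells. BMI1 and CBX7 are known for silencing the CDKN2A locus, which otherwise halts proliferation.

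Values were on the log2 scale of the deposited table, and rows of different genes were not corrected for gene length. Levels were therefore compared between lines within a gene, and not between genes. The values had been brought to a common scale by the authors, so sequencing depth is unknown. Asia departed most from the other lines over all 12590 rows above the minimum, with an SD of its deviations from the row medians of 0.53 log2 units, against 0.22 to 0.42 in the other lines. Values without Asia are given for the main calls, signs and ranges that changed when it was left out. The labels name lymphocyte lines transformed with Epstein-Barr virus, and do not name B cells. That the lines are B cells could not be checked against marker genes. No table at hand pairs the symbols of those markers with the identifiers of the rows. In RNA from whole cultures, a smaller share of cells expressing a gene and less RNA per cell cannot be told apart.

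The 7 genes as a group varied about as much as other genes. Their SD over the 9 lines ran from 0.11 log2 units for SUZ12 to 0.45 for CBX7, with a median of 0.19, beside a median of 0.22 over all 12590 rows. The typical gene of the 7 spanned 1.44-fold between its extreme lines (median), beside 1.60-fold over all rows. BMI1 and CBX7, 2 of the 7 genes, spanned 2-fold or more, as did 26.4% of all rows. No gene of the 7 reached 4-fold. The variance test of limma, with Benjamini-Hochberg adjustment over all rows, called 0% of the 12590 rows and none of the 7 genes. Without adjustment, 658 rows and 0 of the 7 genes had a p under 0.05. The variance test set the variance of each row against that of rows at a similar level, and not line against line. Variances were so uneven among rows that it had little power. With 1 library per line it does not measure whether lines differ, and a count of 0 does not show that they were alike.

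**Figure D1:**
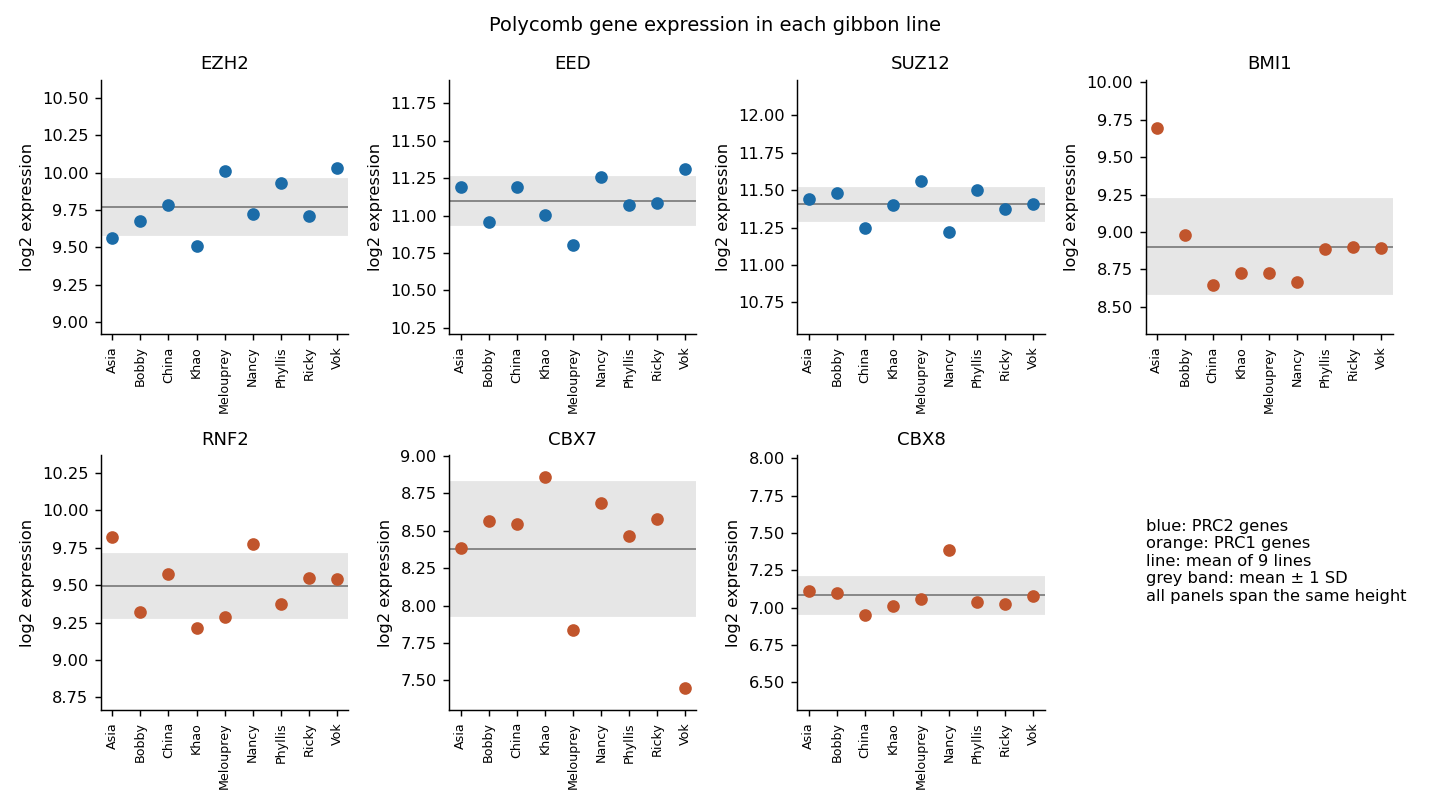
Expression of the 7 Polycomb genes (y axis, log2 expression as deposited) in each of the 9 lines (x axis), 1 point per line, with the mean and a band of 1 SD on either side. All panels span the same height, so the wide scatter of CBX7 (7.45 to 8.86), the single high point of BMI1 in Asia (9.69) and the narrow scatter of SUZ12 (11.22 to 11.56) can be compared directly.

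The core subunits of PRC2 differed by less than 1.5-fold among the lines. EZH2, the catalytic subunit that methylates histone H3, had its lowest level in Khao (9.51 log2 units), a median of 9.73 and its highest level in Vok (10.03). Its mean was 9.77 ± 0.19 (SD, n = 9), a 1.44-fold range. Vok, Melouprey (10.01) and Phyllis (9.93) lay above the other 6 lines, of which the highest was China at 9.78. Asia (9.57) was next to Khao at the low end. EZH2 was an ordinary row in its spread, with an SD above that of 46.4% of the 2238 rows whose mean lay within 0.5 log2 units of its own.

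EED, the subunit that binds methylated histone H3 and stimulates the enzyme, was lowest in Melouprey (10.80 log2 units), with a median of 11.09, and highest in Vok (11.31). Its mean was 11.10 ± 0.16 (SD, n = 9), a 1.43-fold range. SUZ12, the scaffold that holds the complex together, was the least variable of the 7 genes. It ran from 11.22 in Nancy through a median of 11.41 to 11.56 in Melouprey, with a mean of 11.40 ± 0.11 (SD, n = 9) and a 1.27-fold range. Its SD exceeded that of only 9.09% of all rows, and of 14.3% of rows at a similar level. The order of the lines differed between EED and SUZ12: Melouprey was last for EED and first for SUZ12, and Nancy was second for EED and last for SUZ12.

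The PRC1 genes held both the most and some of the least variable rows. CBX7, a chromodomain subunit that brings PRC1 to methylated histone H3, was lowest in Vok (7.45 log2 units), followed by Melouprey at 7.84. The other 7 lines lay between 8.39 (Asia) and 8.86 (Khao), and the median of all lines was 8.55. Without Asia, the lowest of these was Phyllis at 8.47. Vok and Melouprey were therefore 1.10 and 0.71 log2 units below the median. The mean was 8.38 ± 0.45 (SD, n = 9), and the range was 2.67-fold, or 2.03-fold without Vok. The SD of CBX7 exceeded that of 85.4% of all rows and of 85.1% of rows at a similar level.

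CBX8, another chromodomain subunit that can take the same place in PRC1, did not share this pattern. It was lowest in China (6.95 log2 units), with a median of 7.06, and highest in Nancy (7.39), giving a mean of 7.08 ± 0.12 (SD, n = 9). Nancy stood alone, since the next line was Asia at 7.11. Without Nancy the range of CBX8 fell from 1.35-fold to 1.12-fold. In Vok, the line with the least CBX7, CBX8 was 0.02 log2 units above its median, and in Melouprey it was the median line. The log2 difference between CBX8 and CBX7 is free of gene length when it is compared among lines. It ran from -1.85 in Khao to -0.37 in Vok, with Melouprey next to Vok at -0.78. The ratio of CBX8 to CBX7 thus spanned 2.81-fold among the lines.

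BMI1, the PCGF subunit of canonical PRC1 and known for its role in stem cell self-renewal, was high in a single line. It reached 9.69 log2 units in Asia. The other 8 lines lay between 8.64 (China) and 8.98 (Bobby), with a median of all lines of 8.89. Asia was thus 0.81 log2 units above the median, and the mean was 8.90 ± 0.32 (SD, n = 9). The range was 2.07-fold with Asia and 1.27-fold without it, and the SD without Asia was 0.13. BMI1 spans 2-fold only when that line is included.

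RNF2 is the ubiquitin ligase subunit that BMI1 pairs with. It was lowest in Khao (9.22 log2 units), with a median of 9.54, and highest in Asia (9.82). Its mean was 9.50 ± 0.21 (SD, n = 9), a 1.52-fold range. Nancy (9.78) was nearly as high as Asia, and Melouprey (9.29) nearly as low as Khao. Both BMI1 and RNF2 thus had their highest value in Asia, but the log2 difference of BMI1 to RNF2 still ran from -1.11 in Nancy to -0.13 in Asia, a 1.98-fold span of the ratio. Without Asia the highest difference was -0.34, in Bobby, and the span was 1.70-fold. The range of RNF2 without Asia was 1.48-fold.

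A single outlying line was found in 2 of the 7 genes by Dixon's gap criterion (a gap to the nearest line that is a large part of the whole range), beside 10.1% of all rows. The genes were BMI1, with Asia high, and CBX8, with Nancy high. The low CBX7 value of Vok was not outlying by this criterion, because Melouprey lay between it and the rest.

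**Figure D2:**
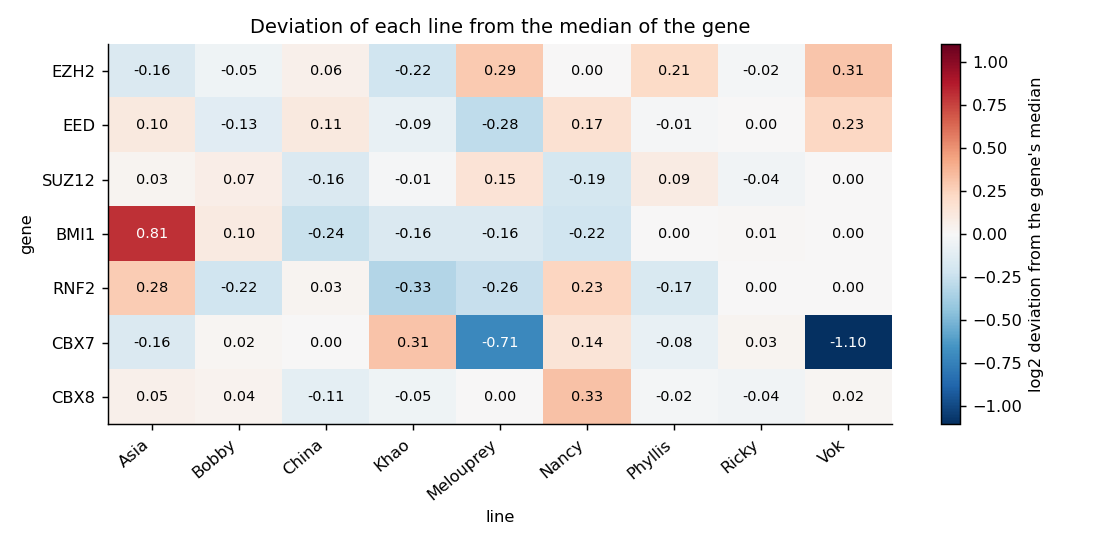
Deviation of each line (columns) from the median of each gene (rows), in log2 units, with red above and blue below the median. The strongest cells are CBX7 in Vok (-1.10) and Melouprey (-0.71) and BMI1 in Asia (0.81), while Ricky stays within 0.04 of the median in all 7 genes.

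Seen by line, no line was high or low across the whole set. Asia had the highest BMI1 and RNF2, and the second lowest EZH2. Vok had the highest EZH2 and EED together with the lowest CBX7. Melouprey had the highest SUZ12, the lowest EED and the second lowest CBX7. Khao was the reverse of Vok in part, with the lowest EZH2 and the highest CBX7. Khao also had the lowest RNF2, for which Vok was the median line. Nancy had the highest CBX8 and the lowest SUZ12, and China the lowest BMI1 and CBX8. Bobby, Phyllis and Ricky were at neither end for any of the 7 genes.

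**Figure D3:**
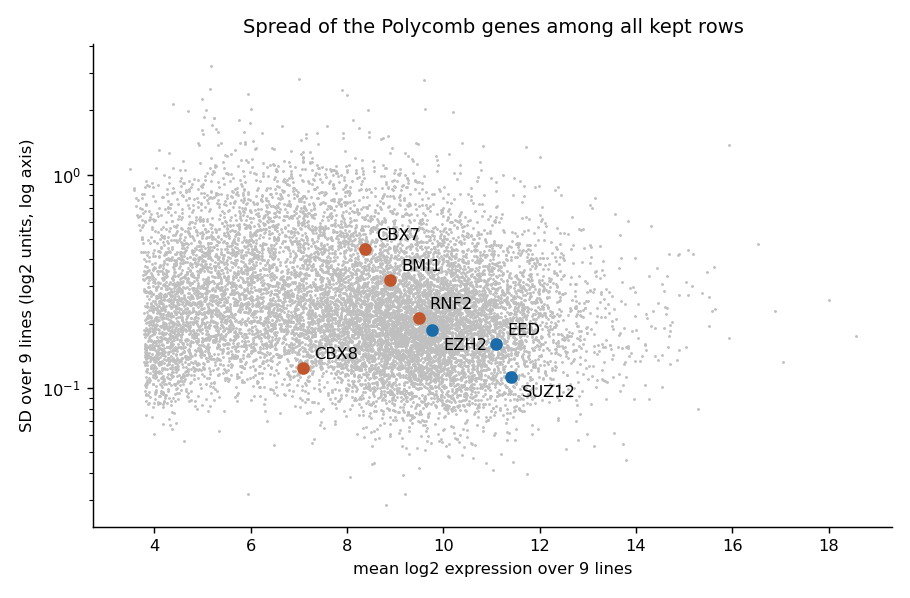
SD over the 9 lines (y axis, log2 units on a log axis) against mean log2 expression (x axis) for the 12590 rows kept (grey), with PRC2 genes in blue and PRC1 genes in orange. CBX7 (0.45) and BMI1 (0.32) lie in the upper part of the cloud and SUZ12 (0.11) and CBX8 (0.12) in the lower part.

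Genes whose proteins share a complex were not shown to vary together. Over the 21 pairs of the 7 genes, Pearson's r across the 9 lines had a median of -0.02 and was negative in 11 pairs. Of the 21, 3 had an unadjusted exact permutation p under 0.05 (two-sided, all 362880 pairings), and with adjustment over the 21 pairs none passed (smallest adjusted p = 0.14, exact permutation). Each gene was also correlated with all 12589 other rows. Without adjustment, the exact permutation p was under 0.05 in 2657 of these rows for EZH2, 2820 for CBX7 and 1917 for RNF2. The counts were 1268 for SUZ12, 1030 for EED, 818 for BMI1 and 591 for CBX8. Whether the 3 of 21 pairs exceed these shares was not tested. Benjamini-Hochberg adjustment over the 12589 rows called 1.15% of them for EZH2, 2.82% for CBX7, 0.0635% for RNF2 and 0.00794% for BMI1, and 0% for EED, SUZ12 and CBX8. No pair among the 7 genes was among the rows called.

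EZH2 and CBX7 had the largest r of the 21 pairs in absolute value, and it was negative. Pearson's r was -0.79 (exact permutation p = 0.0066, n = 9, adjusted over all rows p = 0.098 for EZH2 as the reference gene and 0.086 for CBX7), and Spearman's rho was -0.68 (exact permutation p = 0.050). Of the other rows, 3.68% had an r with EZH2 at least as negative, and 6.60% had an r with CBX7 at least as negative. Vok and Melouprey, with the most EZH2 and the least CBX7, carry much of the relation: without these lines r was -0.41. Leaving out any 1 line gave r between -0.87 (without Asia) and -0.72 (without Vok). Without Asia the adjusted p over all rows was 0.018 with CBX7 as the reference and 0.062 with EZH2 (exact permutation, n = 8). The log2 difference of EZH2 to CBX7 ran from 0.65 in Khao to 2.59 in Vok, a 3.84-fold span of the ratio, which is wider than the range of either gene alone.

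EED was positively related to RNF2, a gene of the other complex, without passing the test over all rows. Pearson's r was 0.76 (exact permutation p = 0.018, n = 9, adjusted over all rows p = 0.56 for EED and 0.23 for RNF2 as the reference), and Spearman's rho was 0.73 (exact permutation p = 0.031). Without Vok and Melouprey, the lines farthest from the median of EED, r was 0.90. Asia, Nancy and China were above the median in both genes, and Melouprey, Bobby, Khao and Phyllis below it in both. Vok, the highest line for EED, was the median line for RNF2. EED and SUZ12, which sit in the same PRC2 core, had an inverse relation that did not pass either, with r = -0.68 (exact permutation p = 0.044, n = 9, adjusted over all rows p = 0.61 for EED and 0.48 for SUZ12) and rho = -0.67 (exact permutation p = 0.059). That r was -0.72 without Vok and Melouprey. SUZ12 and RNF2 had r = -0.58 (exact permutation p = 0.10, n = 9), and without Asia -0.80 (exact permutation p = 0.018, n = 8, adjusted over all rows p = 0.24 for SUZ12 and 0.42 for RNF2).

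Relations within PRC1 moved widely when a single line was left out, and none had an exact permutation p under 0.05 over the 9 lines. BMI1 and RNF2 had r = 0.45 (exact permutation p = 0.24, n = 9). Without Asia the sign changed, to -0.28, and without Nancy r was 0.70 (exact permutation p = 0.062, n = 8). BMI1 and CBX8 had r = 0.02 (exact permutation p = 0.95, n = 9), or 0.70 without Nancy (exact permutation p = 0.058, n = 8). Without Asia the r of BMI1 and CBX8 was -0.17. RNF2 and CBX8 had r = 0.52 (exact permutation p = 0.14, n = 9), or 0.20 without Nancy. CBX7 and CBX8 had r = 0.08 (exact permutation p = 0.79, n = 9), or -0.41 without Nancy.

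No relation of EZH2 with its PRC2 partners was detected. With EED, r was -0.02 (exact permutation p = 0.96, n = 9), between -0.39 without Vok and 0.49 without Melouprey, and 0.079 without Asia. With SUZ12, r was 0.30 (exact permutation p = 0.43, n = 9), between 0.061 without Melouprey and 0.39 without Asia. With 9 lines these values do not show that the genes are unrelated.

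**Figure D4:**
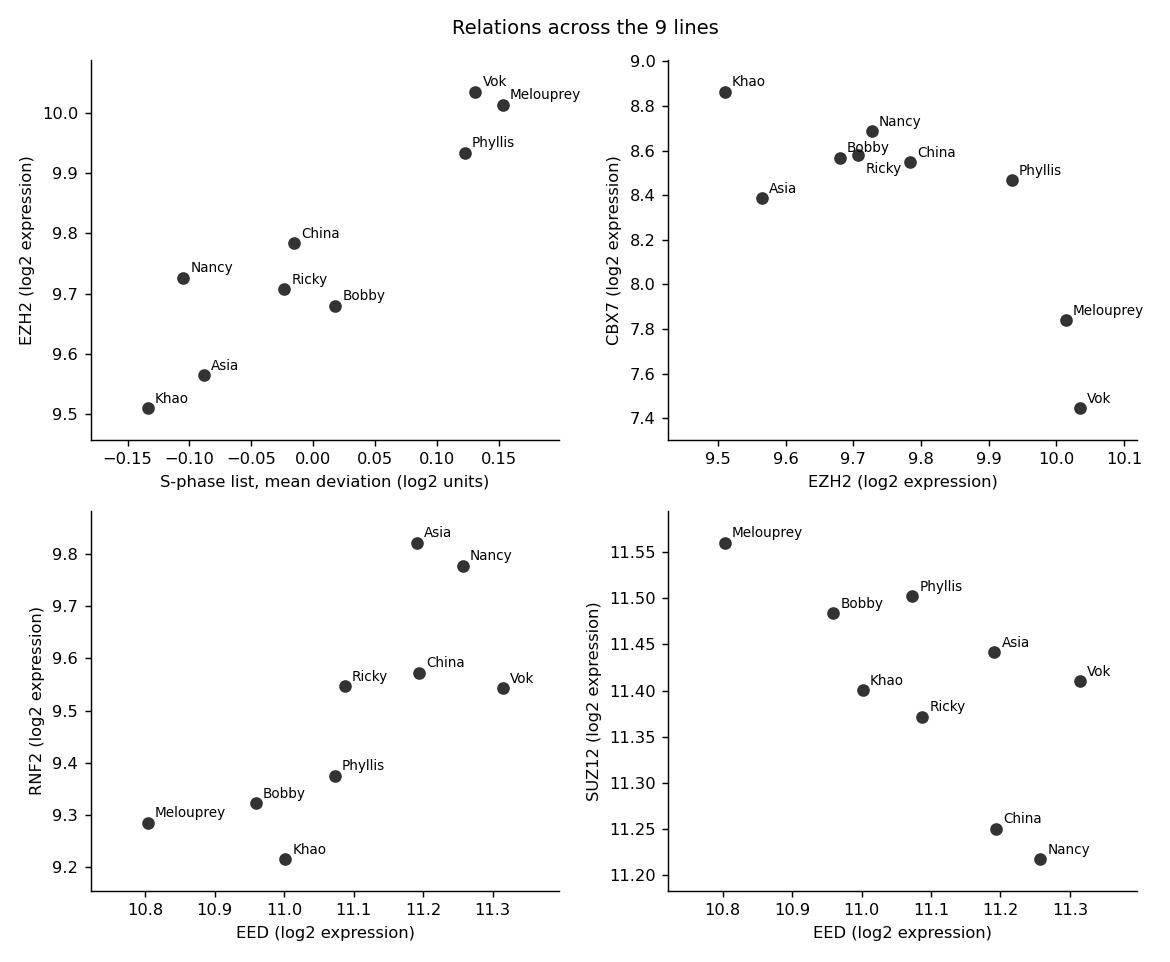
Relations across the 9 lines, 1 labelled point per line: EZH2 against the S-phase list (log2 units), CBX7 against EZH2, RNF2 against EED and SUZ12 against EED (log2 expression). Vok, Melouprey and Phyllis sit apart at the upper end of EZH2 and of the S-phase list, and Vok and Melouprey at the low end of CBX7.

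Across the 9 lines, EZH2 was higher where lists of cell cycle genes were higher, but whether this passed adjustment depended on the setting. Lists of identifiers for genes of S phase, G2M and G1 were taken from a classifier of human cell cycle phases, and the level of a list in a line was the mean deviation of its rows from their medians. EZH2 is itself on the S-phase list and was left out of it, which left 175 rows, with 169 rows for G2M and 193 for G1. EZH2 correlated with the S-phase list with r = 0.92 (exact permutation p = 0.0013, n = 9, adjusted over all rows p = 0.046), and with rho = 0.82 (exact permutation p = 0.011). For the G1 list, r was 0.92 (exact permutation p = 0.00055, n = 9, adjusted p = 0.034) and rho was 0.90 (exact permutation p = 0.0020). For the G2M list, r was 0.87 (exact permutation p = 0.0020, n = 9, adjusted p = 0.084) and rho was 0.83 (exact permutation p = 0.0083).

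The adjusted test called 4.23% of the 12590 rows for the S-phase list, 3.12% for the G1 list and 0.175% for the G2M list. Rows of each list stayed among the rows tested, although they make up the level of that list. This can raise the shares called and lower every adjusted p given for the lists, that of EZH2 included. EZH2 was among the rows called for S phase and for G1. With Spearman's rho neither call held (adjusted over all rows p = 0.12 for S phase and 0.068 for G1, exact permutation), and with columns centred on their medians the S-phase call was lost (adjusted p = 0.057, exact permutation). An r at least as high as that of EZH2 was found in 126 other rows for S phase, 113 for G1 and 234 for G2M, and rows of the lists themselves are among them. The lists correlated with each other (r = 0.82 for S and G2M, 0.89 for S and G1, 0.80 for G2M and G1), so these are not separate pieces of evidence, and no phase can be singled out. A total of 21 relations of genes and lists were computed. The adjustment over rows was made for each list alone, and not across the lists.

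Vok, Melouprey and Phyllis were the highest lines both in EZH2 and in the S-phase list (0.13, 0.15 and 0.12 log2 units, against at most 0.02 in the other 6 lines). Within the other 6 lines, a split chosen after the values were seen, the S-phase r was 0.63 (exact permutation p = 0.20, n = 6) and the rho 0.43 (exact permutation p = 0.42). For G1 it was 0.74 (exact permutation p = 0.092, n = 6; rho 0.66, exact permutation p = 0.18) and for G2M 0.80 (exact permutation p = 0.036, n = 6; rho 0.60, exact permutation p = 0.24). Leaving out the highest lines narrows the range of EZH2 and of the S-phase list, which can itself lower r. The p-values within these 6 lines are unadjusted. Without the lines farthest from the median of each list, r was 0.84 for S phase, 0.93 for G1 and 0.78 for G2M. Leaving out 1 line at a time kept r between 0.90 and 0.97 for S phase, but the adjusted p then lay between 0.067 and 0.11, under 0.05 in no case. For G1, r lay between 0.89 and 0.95 and the adjusted p between 0.028 and 0.13, under 0.05 without Asia, without China or without Khao and in no other case.

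The same relation can be described by the single rows that make up the list levels, which is no separate support for it. Of the 175 S-phase rows, 54.3% had an r with EZH2 of at least 0.5, beside 19.6% of all rows. The shares were 46.7% for the 169 G2M rows and 41.5% for the 193 G1 rows. The median r was 0.57 for S-phase rows and -0.02 for all rows.

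CBX7 had the opposite sign. Its r was -0.76 with the S-phase list (exact permutation p = 0.0076, n = 9, adjusted over all rows p = 0.085; rho = -0.80, exact permutation p = 0.014), -0.76 with G2M (exact permutation p = 0.019, n = 9, adjusted p = 0.18; rho = -0.75, exact permutation p = 0.025) and -0.70 with G1 (exact permutation p = 0.034, n = 9, adjusted p = 0.18; rho = -0.60, exact permutation p = 0.097). None of these passed the threshold after adjustment over the 9 lines. The unadjusted exact permutation p was under 0.05 in 2918 of 12590 rows for S phase, 2407 for G2M and 2815 for G1. An r at least as negative as for CBX7 was found in 702 other rows (S phase), 504 (G2M) and 1200 (G1). Without Asia, r with the G1 list was -0.93 and passed (adjusted over all rows p = 0.024, exact permutation, n = 8), while leaving out any other single line gave an adjusted p between 0.20 and 0.44. With the columns scaled to equal linear totals, an alternative added after the data were seen, the S-phase relation passed (adjusted p = 0.047, exact permutation). Without Vok and Melouprey the S-phase r was -0.55, without Vok and Phyllis the G2M r was -0.60, and without Vok and Asia the G1 r was -0.91. Of the 175 S-phase rows, 48.6% had an r with CBX7 of -0.5 or lower, beside 22.6% of all rows. These rows make up the list level, so the share is no separate support.

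The other genes were not called for any list. SUZ12 had r = 0.60 with the S-phase list (exact permutation p = 0.092, n = 9) and BMI1 had r = -0.54 with the G1 list (exact permutation p = 0.15, n = 9). The latter was 0.27 without Asia, and 0.13 without Vok and Asia. For EED, RNF2 and CBX8, r with the 3 lists lay between -0.41 (RNF2 and G1) and 0.29 (EED and G2M). Whether the r of EZH2 differs from that of the other genes was not tested.

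**Figure D5:**
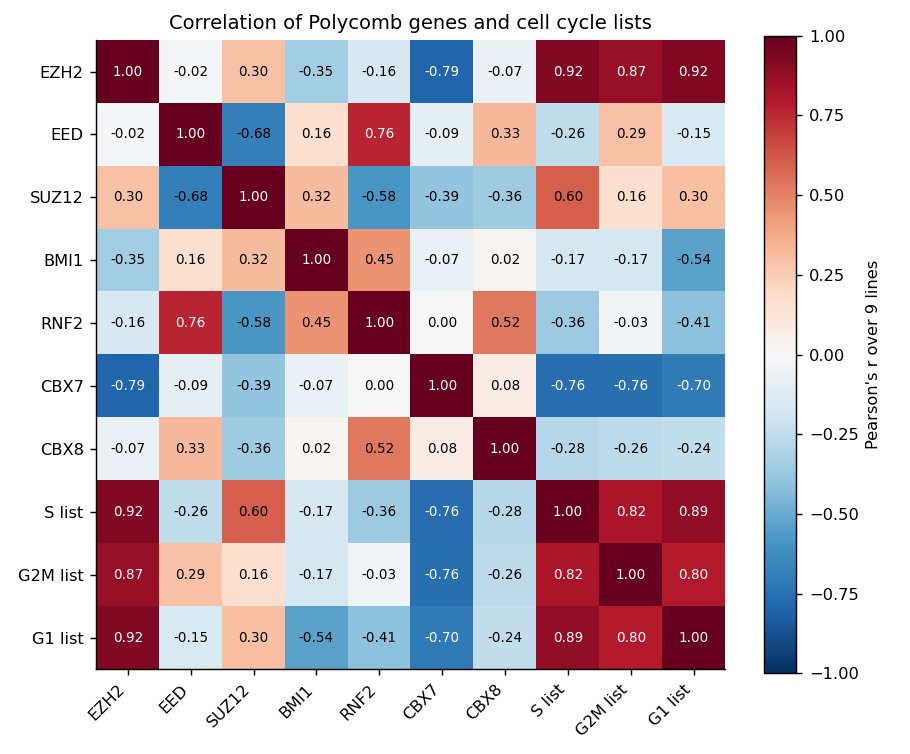
Pearson's r over the 9 lines between the 7 Polycomb genes and the 3 cell cycle lists, from blue (-1) to red (1). EZH2 is red and CBX7 blue against all 3 lists, while EED, BMI1, RNF2 and CBX8 show mostly pale cells there.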

How the data were processed

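RNA was taken from 9 lymphoblastoid lines, 1 library each. The submitters' processing notes name Trimmomatic, STAR, edgeR and DESeq2 without version or role, while build and annotation are not given there or elsewhere. The deposited table holds log2 expression values, per the file headers a table with 1 column per line. The base of the logarithm and the scaling by the authors are not stated. Base 2 was taken from the values, whose linear sums lay between 13728358 and 14059842 in every line. If the authors applied a shrinking log transformation, differences in low rows are reduced. The header joins its last names by a space, so it was split at white space, and 0 per-sample columns were left unused.

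Gene names come from the list of identifiers given for these genes, since the RefSeq table for Asia_NLE_v1 pairs 0 of its 33914 genes with Ensembl identifiers. For that reason other Polycomb genes, cell type markers, positions and sequences are not reported here. The named genes are all listed members that have a row. The members, lists and tests were chosen with earlier results of these data known. The filter kept rows averaging 1 ppm or more of the linear total. The variance test used limma 3.58.1 in R 4.3.3, with a robust prior that follows the level. Correlations were tested by exact permutation over all pairings, two-sided, with Benjamini-Hochberg adjustment over all kept rows. The planned adjustment over the relations alone was replaced, because the members had been chosen with results known. The planned order of levels per length was not made, because no transcript length was at hand. Cell cycle lists came from scran 1.30.0: identifiers that are the higher member of at least 90% of at least 20 pairs. The variance test and Dixon's criterion were also run on simulated, normally distributed values, which does not show how they behave on these rows. Python 3.11.15 with numpy 2.4.6 was used. Alternatives covered scaling, pseudocount, filter, prior, rank statistic and each line left out. The permutation p-values give the share of pairings of the lines with an r at least as large in absolute value. Each line had 1 library.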

Additional observations from a re-analysis of the deposited data

Results flagged for a closer look

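Of 16 sets of 9 values checked for a single outlying line (7 genes, 3 cell cycle lists and 6 log2 differences between genes), 2 gave one. About 1 in 20 sets is flagged by chance where sets are independent, and these overlap. In these data the criterion flagged 10.1% of all 12590 rows, a larger share than that. BMI1 stood out because Asia, at 9.69 log2 units, lay far above the next line, Bobby at 8.98. Asia is also the line that departs most from the others over all rows, and its part in the BMI1 value was not tested. CBX8 stood out because Nancy, at 7.39 log2 units, lay above the next line, Asia at 7.11, in a gene whose other 8 lines have an SD of 0.05.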

How the results depend on the processing

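The correlations of EZH2 with CBX7 and with the 3 lists, of CBX7 with the lists, and of EED with RNF2 and SUZ12 kept their sign under all settings run for them. Without 1 line, the number of genes spanning at least 2-fold was between 1 and 2 (1 without Asia), the number with an outlying line between 1 and 3 (1 without Asia and 1 without Nancy), and the number of gene pairs called over all rows between 0 and 1 (EZH2 and CBX7, without Asia). The number of relations with cell cycle lists called over all rows was 2 as reported, 1 with columns centred on their medians, 0 with Spearman's rho and between 0 and 2 without 1 line. It was 4 with the planned adjustment over the 21 relations alone. The relations that passed under an alternative alone were CBX7 with S phase (equal linear totals, r = -0.80), CBX7 with G1 (without Asia, r = -0.93, adjusted p = 0.024) and EZH2 with G2M (without Melouprey, adjusted p = 0.041). limma's variance test called 0 of the 7 genes in every setting run. The range of the CBX8 to CBX7 log2 difference lay between 1.07 and 1.49 without 1 line. The order of levels per length was not run. No paired analysis was possible because all lines belong to 1 group. Since depth is unknown, counting error in low rows such as CBX8 could not be separated.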
